A study of Mus musculus with 12 samples.

Results

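A set of 10 genes that mark blood vessels and microglia was followed through neurons made from mouse embryonic stem cells and through the embryonic brain. The set holds 6 endothelial genes (Pecam1, Kdr, Tek, Tie1, Cldn5 and Esam) and 4 microglial genes (Aif1, Csf1r, Cx3cr1 and C1qa). It was defined by gene symbol in the scanner files, which gave 14 probes: 2 for Kdr, 3 for Csf1r, 2 for Cx3cr1 and 1 for each of the other genes, out of 55681 non-control probes. All 14 probes passed the filter on dim probes, and 10 of the 26293 genes tested between embryonic tissues and cultures are therefore members.

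RNA was measured on 12 single-colour Agilent arrays. Embryonic day 15 (E15) cortex, hippocampus, ventral telencephalon and midbrain of Sv129s6 mice of mixed sex were hybridised to 1 array each. The 8 culture arrays hold neurons of male 129/Ola embryonic stem cells at day 16 of differentiation, with 2 arrays for each of 4 groups. From day 0 each of the 4 groups was given 53AH at 2.5 µM, which inhibits WNT signalling, together with LDN193189 at 0.25 µM, which inhibits BMP receptors. CHIR_8-16 cultures received the inhibitors until day 8 and a WNT agonist, CHIR at 3 µM, from day 8 to day 16. CHIR_11-16 cultures received the inhibitors until day 11 and the agonist from day 11 to day 16, at a dose the labels do not state. WiBi_0-16 cultures received the inhibitors until day 16 and WiBi_0-11 cultures until day 11, without agonist. Per the labels, RNA from 3 sets of experiments was pooled for each sample, so p-values measure the spread between pools and not between single cultures or litters. No tissue has a replicate pool. For tissues against cultures the error is therefore the spread among the 4 different tissues and among the 8 arrays of the 4 culture groups. SDs with n = 4 and n = 8 are over the same arrays.

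Endothelial cells line the vessels that grow into the embryonic brain from the plexus around it, and in the brain they form the tight junctions of the blood-brain barrier. Microglia are the resident macrophages of the brain and descend from yolk sac progenitors that enter the neural tissue during embryonic life. Neither lineage arises from the neuroectoderm, the tissue from which neurons, astrocytes and oligodendrocytes are made. In bulk RNA a lower signal can stand for fewer cells of a type or for less RNA per cell, and these cannot be told apart here.

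Across the 12 arrays 59.1% to 71.2% of spots were well above background, 0 spots were saturated, and none of the 66 pairs of arrays held identical values. The 4 tissues lay on slide 1, the first replicate of every culture group on slide 2 and the second on slide 3. Slide, mouse strain, sex mixture and the dissection itself therefore cannot be told apart from the difference between tissue and culture. The tissue labels were checked against region markers, and 20 of 25 measured markers were highest in their own tissue. Pax7, a dorsal midbrain factor, had a relative level of 0.43 in midbrain and -7.08 to -6.26 in the other tissues. All 12 pan-neuronal genes were well above background on every culture array. Among them Elavl4, an RNA-binding protein of neurons, averaged 3.29 ± 0.17 in the tissues (SD, n = 4) and 2.72 ± 0.22 in the cultures (SD, n = 8).

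A relative level is the log2 processed signal of a probe minus the log2 of the 75th percentile of its array, so 0 is the 75th percentile. Levels of different probes are not comparable with each other. A gene is called when its Benjamini-Hochberg adjusted p in limma is under 0.05 over all genes tested, and a probe of several is tested in a fit over 37883 probes. The fold of a probe that was not well above background on any culture array is a bound, given as "at least". It is taken, on each culture array, against the lowest signal that counted as above background, or the probe's own signal where higher. Where dim arrays are set to their lowest signal above background, a dim signal above that level is likewise kept.

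The probes behind the results are shown by their first 30 bases, 5′ to 3′, with their position on mm9. They were chosen because one Kdr probe was called and the other was not, Cx3cr1's probes agreed in direction, Cldn5 had the largest member difference, Tie1 split the culture arrays, and Pecam1 hardly differed. Each sequence occurred on 1 probe of the array.
Kdr probe 1 (chr5:76330395-76330454, minus strand): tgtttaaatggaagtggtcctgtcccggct
Kdr probe 2 (chr5:76329309-76329368, minus strand): ctactgtatcctttagaattttaacctata
Cx3cr1 probe 1 (chr9:119957811-119957870, minus strand): cgtgcctagagtgtgtctatcccacttgta
Cx3cr1 probe 2 (chr9:119959018-119959077, minus strand): caagaatgtcttcatgcattcactgactcc
Cldn5 (chr16:18778046-18778105, plus strand): tcctactgagatcctgggggcactagatgc
Tie1 (chr4:118144132-118144191, minus strand): gtgaacatgtcgctgtttgagaacttcacc
Pecam1 (chr11:106540864-106540923, minus strand): ccccagaacatggatgtagaatacacagaa

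Kdr is read on the minus strand, so its second probe lies farther towards the 3′ end than the first. The GC content of the 14 member probes ran from 35% to 55.0%, where the median of all probes was 43.3%. Kdr's probes stood at opposite ends of that range, with 55.0% for probe 1 and 35% for probe 2. Cldn5 and C1qa had 55.0% too and Esam 35%, and these genes were called. Whether GC content bears on the difference between the Kdr probes was not tested. Exon and UTR annotation of mm9 was not used here.

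RefSeq promoter windows of GRCm38.p6, from 250 bases before to 50 bases after the gene's start, matched 6 of the 10 members (Kdr, Tek, Tie1, Cldn5, Aif1 and Cx3cr1). ETS transcription factors, which include Fli1 in endothelium and PU.1 in macrophages, recognise a core of GGAA. Counted on both strands (GGAA or TTCC), the core occurred 9 times in the Tie1 window, 5 times in Kdr, 3 times in Aif1, 3 times in Cx3cr1, 2 times in Tek and 0 times in Cldn5. Over 32851 windows of the same length the median was 3, 96.0% held at least 1 match, 4.02% held none and 1.59% held 9 or more. The 250 bases before the start are printed for both extremes, with the core in capitals.
Tie1 (chr4:118489850-118490099, minus strand): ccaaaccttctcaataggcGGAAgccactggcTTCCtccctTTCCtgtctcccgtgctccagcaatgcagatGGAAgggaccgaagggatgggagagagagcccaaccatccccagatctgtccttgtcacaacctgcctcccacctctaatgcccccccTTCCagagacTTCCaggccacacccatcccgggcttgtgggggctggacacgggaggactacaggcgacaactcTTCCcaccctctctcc
Cldn5 (chr16:18776597-18776846, plus strand): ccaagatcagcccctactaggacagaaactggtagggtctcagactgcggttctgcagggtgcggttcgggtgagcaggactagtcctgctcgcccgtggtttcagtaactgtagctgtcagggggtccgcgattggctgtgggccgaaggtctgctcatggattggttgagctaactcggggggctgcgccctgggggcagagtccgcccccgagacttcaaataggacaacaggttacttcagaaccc

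The Tie1 stretch holds 7 of that window's matches and the Cldn5 stretch 0. A match in such a window is a description of its letters.

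The main question of the design for these genes is how the E15 tissues, which hold vessels and microglia, compare with the cultures. Of the 10 members, 8 were called and all 8 were higher in the tissues, where 35.5% of all genes were called, 12.9% as higher and 22.5% as lower. The members called were Tek, Tie1, Cldn5 and Esam among the endothelial genes and Aif1, Csf1r, Cx3cr1 and C1qa among the microglial genes. Pecam1 and the brighter Kdr probe were not called. By probe, 11 of 14 were called, all higher, where 35.2% of all probes were called and 12.5% as higher. The same 11 had all 4 tissue arrays above all 8 culture arrays, against 7.79% of all probes, and by their brightest probe 8 of 10 members did, against 8.09% of all genes. Tek, Cx3cr1 and C1qa were on no culture array well above background and Tie1 on 2, so they passed the filter through the tissues and could only be higher there.

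**Figure D1:**
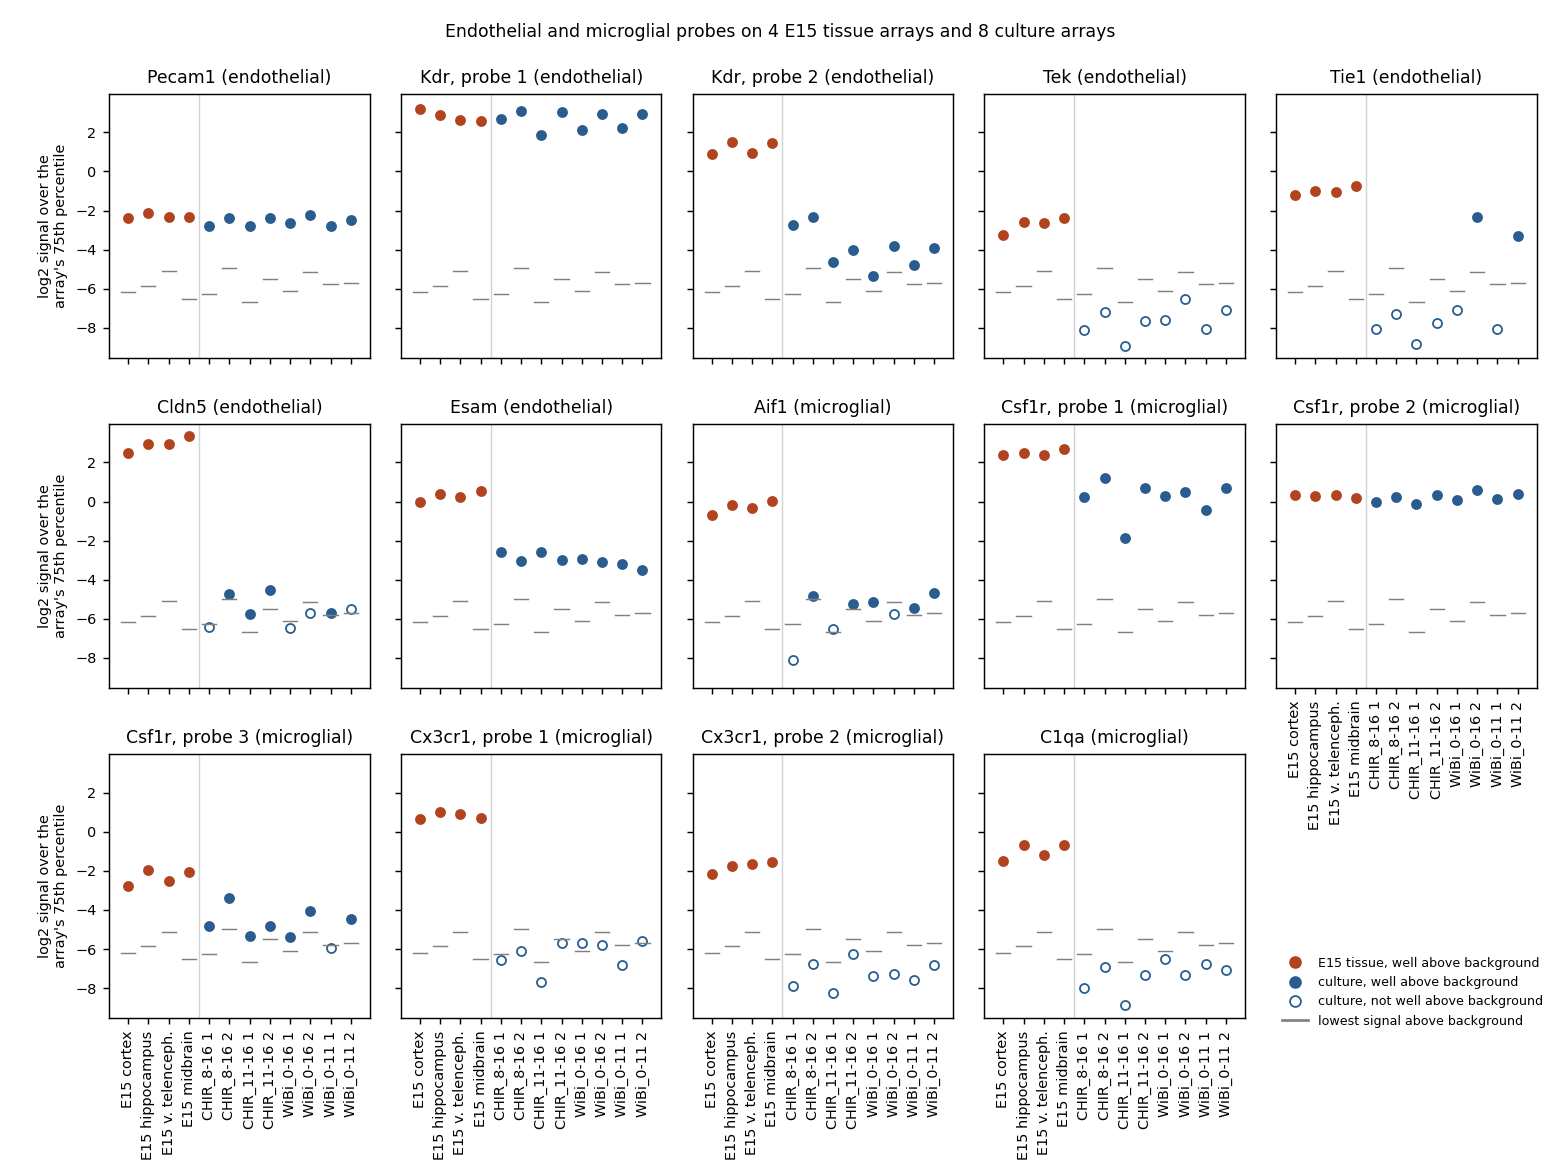
Relative level (log2 signal over the array's 75th percentile) of the 14 member probes on 4 E15 tissue arrays and 8 culture arrays, 1 point per array. Filled points are well above background, hollow points are not, and grey bars mark the lowest signal above background on each array. The 3 probes of Pecam1, Kdr (probe 1) and Csf1r (probe 2) overlap between tissues and cultures, and the other 11 do not.

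Among the endothelial receptors, Kdr encodes VEGFR2, the main signalling receptor for VEGF on endothelium. Its second probe had relative levels of 0.91 in cortex, 1.50 in hippocampus, 0.95 in ventral telencephalon and 1.48 in midbrain, against -5.37 (lowest), -3.97 (median) and -2.34 (highest) in the 8 cultures. All 4 tissues lay above every culture array, and the gap between the groups was 3.25. The difference was 5.16 (SE 0.49, adjusted p = 1.1e-05 in limma over all probes), a 35.8-fold higher signal in the tissues, and this probe was well above background on all 12 arrays.

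The first Kdr probe gave another picture. It had 3.18 in cortex, 2.87 in hippocampus, 2.64 in ventral telencephalon and 2.56 in midbrain, against 1.88 (lowest), 2.79 (median) and 3.11 (highest) in the cultures. Cortex lay just above every culture and 3 cultures lay below every tissue, while the other arrays overlapped. Its difference was 0.20 (SE 0.25, adjusted p = 0.567 in limma over all genes), and it was -0.20 against the cultures of slide 3 alone (adjusted p = 0.36) and 0.59 against those of slide 2 alone (adjusted p = 0.065). As the brighter probe it stands for Kdr in the fit over genes. With the mean of both probes Kdr was called, at 2.68 (adjusted p = 9.99e-05).

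The second Kdr probe is printed 10 times on each array, with an SD over those spots of 0.036 to 0.352 on the log2 scale. The probes of Kdr lay 4.97 apart in their tissue-minus-culture difference. Among 7407 genes with at least 2 passing probes the median range was 0.50, and 16 genes (0.216%) had a range as large as that of Kdr. In 14.9% of those genes one probe was called higher in the tissues and another was not called, and Kdr and Csf1r are both of that kind.

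Tek, the angiopoietin receptor also known as Tie2, had -3.25 in cortex, -2.57 in hippocampus, -2.62 in ventral telencephalon and -2.40 in midbrain. The cultures had -8.91 (lowest), -7.63 (median) and -6.52 (highest), all of them not well above background. The tissues were at least 8.31-fold higher (adjusted p = 1.6e-06 in limma), with measured means of -2.71 ± 0.37 in tissues and -7.64 ± 0.73 in cultures (SD, n = 4 and 8).

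Tie1, the orphan receptor that partners Tie2, had -1.21 in cortex, -1.02 in hippocampus, -1.04 in ventral telencephalon and -0.75 in midbrain, against -8.84 (lowest), -7.52 (median) and -2.35 (highest) in the cultures. No culture reached the tissues, but 2 of the 8 cultures stood clear of the rest. These were the second replicates of the cultures without agonist, with -2.35 in WiBi_0-16 and -3.29 in WiBi_0-11, and both were well above background. The other 6 cultures ranged from -8.84 to -7.06 and were not. The difference was 5.58 with the widest error of the members (SE 1.11, adjusted p = 0.0024 in limma), or 48.0-fold, and 17.2-fold with the dim arrays set to their lowest signal above background. Against the cultures of slide 3 alone it was 4.16 (adjusted p = 0.025 in limma) and against those of slide 2 alone 7.01 (adjusted p = 5.7e-06).

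Cldn5, the main claudin of endothelial tight junctions at the blood-brain barrier, had 2.51 in cortex, 2.96 in hippocampus, 2.97 in ventral telencephalon and 3.37 in midbrain, against -6.45 (lowest), -5.70 (median) and -4.53 (highest) in the cultures. The groups were 7.04 apart at their closest arrays. Its difference of 8.55 (SE 0.35, adjusted p = 9.8e-09 in limma) was the largest of the members and ranked 10 among the 26293 genes, ordered from the highest difference. That is a 375-fold difference measured with 4 of 8 cultures above background, or 342-fold with the dim arrays set to their lowest signal above background.

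Esam, an adhesion molecule of endothelial junctions and platelets, had -0.04 in cortex, 0.38 in hippocampus, 0.26 in ventral telencephalon and 0.55 in midbrain, against -3.49 (lowest), -3.02 (median) and -2.58 (highest) in the cultures. The groups did not overlap, and every culture was well above background. The difference was 3.28 (SE 0.18, adjusted p = 1.3e-07 in limma), or 9.70-fold.

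Pecam1 encodes CD31, an adhesion molecule of endothelial junctions that platelets and leukocytes carry too. It had -2.36 in cortex, -2.14 in hippocampus, -2.35 in ventral telencephalon and -2.31 in midbrain, against -2.77 (lowest), -2.56 (median) and -2.24 (highest) in the cultures. The highest culture, WiBi_0-16 replicate 2, lay inside the range of the tissues. This probe is printed 2 times on each array, and on that array its spots had an SD of 0.514 on the log2 scale. Over all arrays that SD ran from 0.004 to 0.514. The difference was 0.26 (SE 0.13, adjusted p = 0.14 in limma), with every array above background. The call depended on the slide: it was passed against the cultures of slide 2 alone (0.45, adjusted p = 0.025) and not against those of slide 3 alone (0.08, adjusted p = 0.611). It depended on the scaling too, and was passed with median scaling (0.42, adjusted p = 0.024), quantile normalization (0.34, adjusted p = 0.023), normexp followed by quantile normalization (0.22, adjusted p = 0.0496) and the authors' deposited table of log2 values (0.31, adjusted p = 0.039).

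**Figure D2:**
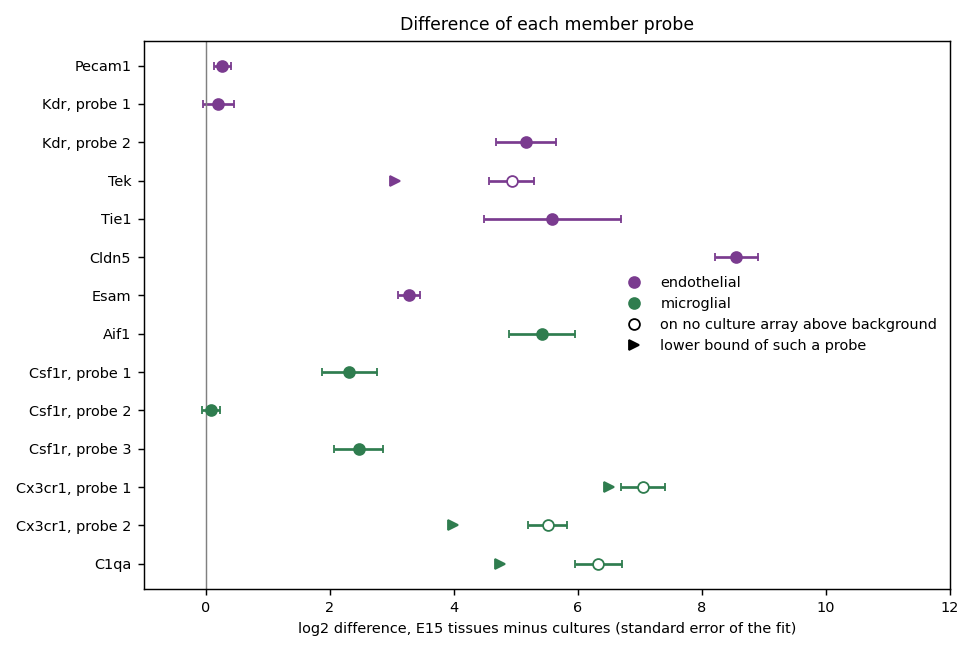
Log2 difference, E15 tissues minus cultures, for each of the 14 member probes with the standard error of the limma fit over 37883 probes. Hollow points are probes on no culture array above background, and triangles give the lower bound of their difference. Pecam1, Kdr probe 1 and Csf1r probe 2 lie within 0.27 of 0, and the other 11 probes lie at 2.31 or above.

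All 4 microglial genes were called. Aif1 encodes Iba1, a calcium-binding protein used to stain microglia. It had -0.68 in cortex, -0.18 in hippocampus, -0.32 in ventral telencephalon and 0.03 in midbrain, against -8.10 (lowest), -5.34 (median) and -4.69 (highest) in the cultures. The groups were 4.01 apart, and 5 of 8 cultures were above background. The difference was 5.43 (SE 0.53, adjusted p = 1.6e-05 in limma), or 43.0-fold, and 34.7-fold with the dim arrays set to their lowest signal above background.

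Cx3cr1, the receptor for the neuronal chemokine fractalkine, was measured by a pair of probes. The first had 0.64 in cortex, 0.99 in hippocampus, 0.92 in ventral telencephalon and 0.69 in midbrain, against -7.69 (lowest), -5.92 (median) and -5.57 (highest) in the cultures. The second had -2.14 in cortex, -1.76 in hippocampus, -1.64 in ventral telencephalon and -1.56 in midbrain, against -8.26 (lowest), -7.32 (median) and -6.27 (highest) in the cultures. On both probes no culture was well above background, and all cultures lay under the tissues. The tissues were at least 90.5-fold higher by the first probe (measured means 0.81 ± 0.17 in tissues and -6.24 ± 0.75 in cultures) and at least 15.9-fold higher by the second (means -1.77 ± 0.26 in tissues and -7.29 ± 0.65 in cultures; SD, n = 4 and 8). The adjusted p-values in limma over all probes were 5.8e-08 and 1.8e-07.

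C1qa, the A chain of complement C1q, which microglia make in the brain, had -1.52 in cortex, -0.69 in hippocampus, -1.19 in ventral telencephalon and -0.66 in midbrain, against -8.84 (lowest), -7.19 (median) and -6.51 (highest) in the cultures. No culture was above background. The tissues were at least 26.9-fold higher (adjusted p = 2.4e-07 in limma, means -1.02 ± 0.41 in tissues and -7.34 ± 0.75 in cultures; SD, n = 4 and 8).

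Csf1r is the receptor for CSF1 and IL-34 on which microglia depend, and each of its 3 probes was well above background on at least 7 of the 8 cultures. Its first probe had 2.36 in cortex, 2.47 in hippocampus, 2.36 in ventral telencephalon and 2.70 in midbrain, against -1.88 (lowest), 0.38 (median) and 1.19 (highest) in the cultures. The groups did not overlap, and the lowest culture was the first replicate of CHIR_11-16. The difference was 2.31 (SE 0.45, adjusted p = 0.0021 in limma), or 4.97-fold.

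Csf1r probe 3, whose mm9 positions span 361 bases for 60 bases of probe, had -2.79 in cortex, -1.94 in hippocampus, -2.50 in ventral telencephalon and -2.05 in midbrain, against -5.94 (lowest), -4.83 (median) and -3.39 (highest) in the cultures. Its difference was 2.46 (SE 0.40, adjusted p = 6.3e-04 in limma over all probes), close to that of the first. The second probe had 0.33 in cortex, 0.29 in hippocampus, 0.32 in ventral telencephalon and 0.17 in midbrain, against -0.13 (lowest), 0.18 (median) and 0.60 (highest) in the cultures, and the groups overlapped. Its difference was 0.08 (SE 0.14, adjusted p = 0.707). The range over the 3 probes was 2.39, and 4.12% of genes with several probes had a range as large.

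The sizes of the large differences rest on dim culture signals. With normexp background correction of the median signals (offset 50) followed by quantile normalization, the fold was 81.6 for Cldn5, 17.2 for the first Cx3cr1 probe, 9.17 for Aif1, 6.88 for C1qa, 6.25 for Tie1 and 3.11 for Tek, and the second Kdr probe had 15.8-fold. For Cx3cr1, C1qa and Tek these are below the bounds given above, which hold on the scale of the processed signal. The 6 genes kept their direction and their call with it.

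Of 37 measured further endothelial genes, 29 were called higher in the tissues, 2 were called lower and 6 were not called, with a median difference of 2.44 beside -0.14 for all genes. Among the 37, 6 genes were on no culture array above background, so they passed the filter through the tissues and could only be higher there. The filter asked for 4 of the 12 arrays. Genes above background on fewer than 4 culture arrays, such as Cdh5, Robo4, Sox18, Sox17 and Vwf, therefore also passed only with the tissue arrays. Cdh5, the endothelial cadherin, differed by 6.81 (SE 0.51, adjusted p = 1.9e-06 in limma), with 1 culture array above background, or 36.1-fold with the dim arrays set to their lowest signal above background. Cd34, a sialomucin of endothelium and blood progenitors, differed by 6.66 (SE 0.32, adjusted p = 4.1e-08). Robo4, an endothelial guidance receptor, differed by 6.24 with 2 culture arrays above background (63.8-fold with the dim arrays set in that way), and Fli1, an ETS factor of endothelium and blood, was at least 17.9-fold higher. The 2 called lower were Plvap, the diaphragm protein of fenestrated vessels, at -1.64, and S1pr1, a sphingosine-1-phosphate receptor, at -0.93, and both are named here after their values were seen.

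Of 17 blood-brain barrier genes, 10 were called higher and 0 lower, with a median of 1.45. The amino acid transporter Slc38a5 was at least 240-fold higher in the tissues. It was on no culture array above background, so it passed the filter through the tissues and could only be higher there. The forkhead factors Foxf2 and Foxq1 differed by 3.89 and 3.60, with 6 and 5 culture arrays above background, and Slco1c1, a thyroid hormone transporter, by 2.16. In this list 13 of 17 genes were above background on every culture array.

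Of 36 measured microglial and macrophage genes, 27 were called higher, 1 lower and 8 not, with a median of 2.68. In this list 14 genes were on no culture array above background, so they passed the filter through the tissues and could only be higher there. Ctss, a lysosomal protease, was at least 81.7-fold higher in the tissues and Tyrobp, the signalling adaptor of Trem2, at least 62.2-fold. C1qc, the C chain of complement C1q, was at least 47.4-fold higher and Trem2, a lipid receptor of microglia, at least 36.0-fold. Ctss, Tyrobp, C1qc and Trem2 were all among the 14. C1qb, another C1q chain, was called higher too, but it was above background on all 8 cultures and differed by 1.61, or 3.06-fold. It is named after its value was seen. The gene called lower was Cd68, a lysosomal glycoprotein, at -1.15, named after its value was seen. In all, 16 of the 36 genes were above background on every culture array. Siglech, Csf3r and Itgam had the highest means of the list and were not called, with differences of -0.09, -0.40 and 0.20. They are named after their values were seen. The sum of the list's unlogged levels was 238 to 337 in the tissues and 246 to 383 in the cultures. The ranges overlapped, and such a sum follows its brightest probes, so it is no measure of microglia.

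**Figure D3:**
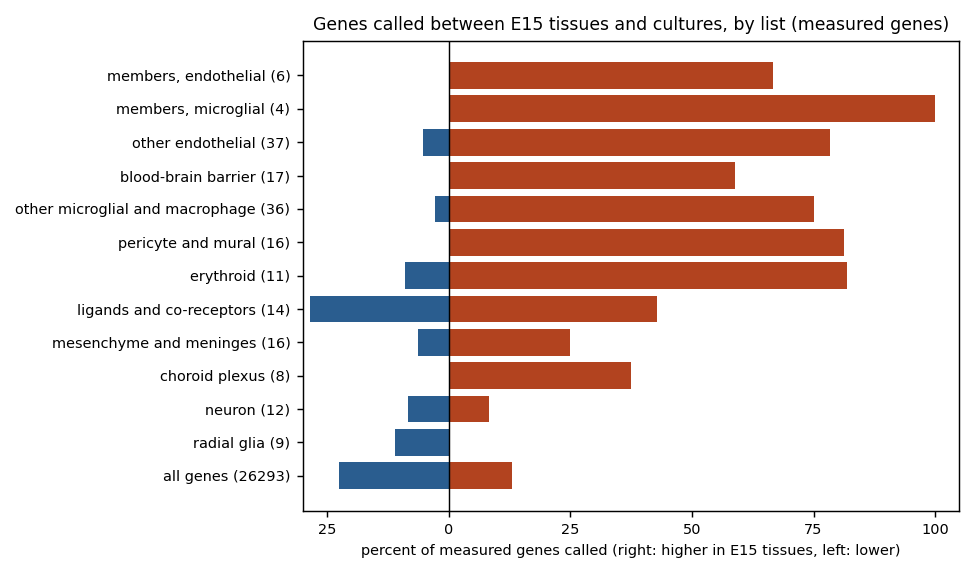
Percent of the measured genes of each list that were called between E15 tissues and cultures, with bars to the right for genes higher in the tissues and to the left for genes lower in the tissues. The number of measured genes stands beside each list. The endothelial, microglial, pericyte and erythroid lists had 66.7% or more of their genes called higher, beside 12.9% of all genes. Genes on no culture array above background passed the filter through the tissues and could only be higher there. Genes above background on fewer than 4 culture arrays also passed only with the tissue arrays.

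Of 14 measured ligands and co-receptors, 6 were called higher, 4 lower and 4 not, with a median of 0.31. Angpt2, a ligand of Tek made by endothelium, differed by 3.93 (SE 0.62, adjusted p = 5.1e-04), with 1 culture array above background, or 10.6-fold with the dim arrays set to their lowest signal above background. Tgfb1, the cytokine that microglia need for their identity, was at least 5.49-fold higher, and Vegfd, a ligand of VEGF receptors, differed by 1.75 with 5 culture arrays above background. Angpt2 and Tgfb1 passed the filter only with the tissue arrays, and Tgfb1, on no culture array above background, could only be higher there. Cx3cl1, the fractalkine ligand that neurons make, was lower in the tissues, at -1.69 (SE 0.36, adjusted p = 0.0036), with 1.74 ± 0.90 in the tissues and 3.42 ± 0.48 in the cultures (SD, n = 4 and 8). Vegfa, the ligand of Kdr, was lower in the tissues too, at -1.10 (SE 0.31, adjusted p = 0.017), and is named after its value was seen.

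Markers of other cells of vessels and blood moved with the members. Of 16 pericyte and mural genes, 13 were called higher and 0 lower, among them Rgs5, a regulator of G protein signalling in pericytes (at least 71.4-fold), and Kcnj8, a pericyte potassium channel subunit (at least 13-fold). Abcc9, its partner subunit, differed by 5.08 with 1 culture array above background (27.9-fold with the dim arrays at their lowest signal above background), and Cspg4, the proteoglycan NG2, by 3.38. Rgs5 and Kcnj8 passed the filter through the tissues and could only be higher there, and Abcc9 too passed only with the tissue arrays. The sum of the list's unlogged levels was 21.0 to 62.9 in the tissues and 8.22 to 64.7 in the cultures, with CHIR_8-16 replicate 2 the highest culture. Such a sum follows its brightest probes, so it is no measure of pericytes. Zic1, which was not called, had the highest mean of the list, with 3.84 in the tissues and 3.32 in the cultures. Of 11 measured erythroid genes, 9 were called higher and 1 (Hbb-bh1, an embryonic beta globin, named after its value was seen) lower. Hbb-b2, an adult beta globin, was at least 3653-fold higher, Hba-a1 and Hba-a2, both adult alpha globins, differed by 11.97 and 11.11, and Alas2, the erythroid enzyme of heme synthesis, was at least 165-fold higher. The sum of the unlogged erythroid levels was 563 to 748 in the tissues and 0.325 to 0.810 in the cultures. Hba-a2 and Hba-a1 had the highest tissue means of the list (8.59 and 7.68). Of the 11 genes, 5 were on no culture array above background, so they passed the filter through the tissues and could only be higher there. The part of blood and mural cells in the member values was not tested.

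In mesenchyme and meninges 4 of 16 genes were called higher and 1 lower, and the largest was Ogn, a small proteoglycan, at 4.81, with 2 culture arrays above background, or 16.7-fold with the dim arrays at their lowest signal above background. Ogn too passed the filter only with the tissue arrays. In the choroid plexus list 3 of 8 were called higher, led by Ttr, the plexus transport protein, with 4.83 in hippocampus and 4.25 in midbrain but 1.25 in ventral telencephalon and -4.07 in cortex. Pan-neuronal genes had 1 of 12 called higher (Elavl4, 0.57) and 1 lower (Rbfox3, the neuronal antigen NeuN, -0.51). Radial glia had 0 of 9 called higher and 1 lower, Sox2, a factor of neural progenitors, at -0.87.

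The order of the 4 E15 tissues rests on 1 array each and has no test. All members share these arrays, so their orders are not independent of each other. The 75th percentile of the signal was lowest on the cortex array (629) and highest on the midbrain array (1030) among the tissues. Its part in the order was not tested. Cortex was the lowest of the 4 tissues for 9 of 10 genes by their brightest probe, against 16.3% of all genes, and midbrain the highest for 7 of 10, against 26.0%. By probe, 12 of 14 were lowest in cortex (15.9% of all probes) and 8 of 14 highest in midbrain (25.3%). The probes not lowest in cortex were Kdr probe 1 and Csf1r probe 2.

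The span from the lowest to the highest tissue ran from 0.16 for Csf1r probe 2 to 0.86 for Cldn5, or 1.12-fold to 1.82-fold. It was smaller than the difference from the cultures for the 11 called probes. C1qa spanned 1.81-fold, Tek 1.80-fold, Aif1 1.63-fold, Esam 1.50-fold and Tie1 1.38-fold, each with cortex lowest and midbrain highest. Neighbouring tissues in these orders, such as hippocampus and ventral telencephalon for Cldn5 (2.96 and 2.97), are not separated by any measure of spread.

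**Figure D4:**
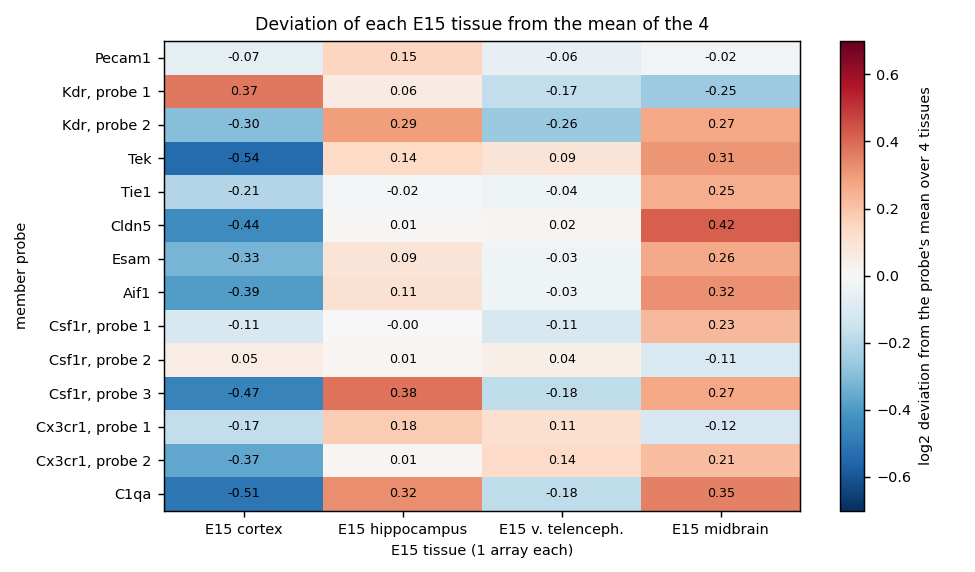
Log2 deviation of each E15 tissue (1 array each) from the mean of the 4, for the 14 member probes, with red above and blue below the mean. Cortex is the lowest tissue for 12 of 14 probes, by up to 0.54 under the mean for Tek, and midbrain reaches 0.42 above it for Cldn5.

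Inside the cultures the design asks whether the WNT agonist, its timing and longer inhibition changed these genes. After the filter on the culture arrays 9 probes of 6 members were tested (Pecam1, Kdr, Cldn5, Esam, Aif1 and Csf1r), while Tek, Cx3cr1 and C1qa were above background on no culture array and Tie1 on 1 array in each of 2 groups. In the fits over genes Csf1r was represented here by its second probe, the brightest on the culture arrays, and not by its first as before. Kdr was represented by its first probe. Both probes overlapped between tissues and cultures. Agonist against inhibitor-only cultures called 0 of 6 members, where 0.00783% of all genes were called, and 0 of 6 with slide as a replicate block, where 3.21% of all genes were. By probe it called 0 of 9, where 0.00549% of all probes were called, and 0 of 9 with the block, where 1.17% were. At an unadjusted p under 0.05, 3909 of 25528 genes passed without the block and 5747 with it.

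Esam, whose groups overlapped, differed by 0.37 (SE 0.18, adjusted p = 0.389 in limma), with -2.81 in agonist and -3.17 in inhibitor-only cultures. Aif1 differed by -0.93 (SE 0.67, adjusted p = 0.639), with -1.38 to -0.29 when 1 array was left out, and by 0.19 within slide 3 and -2.05 within slide 2. Cldn5 differed by 0.48 (SE 0.44, adjusted p = 0.755), with 0.20 to 0.84 when 1 array was left out, and 0.97 within slide 3 and -0.02 within slide 2.

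The 3 groups set against WiBi_0-11 share its 2 arrays. CHIR_8-16, CHIR_11-16 and WiBi_0-16 each had 0 of 6 members called, both without and with the block. CHIR_8-16 called 0.0118% of all genes without the block and 0.309% with it, while CHIR_11-16 and WiBi_0-16 called 0 genes without the block and 0.0118% with it (0.00823% of all probes in each). At an unadjusted p under 0.05, 2458 genes passed for CHIR_8-16, 1200 for CHIR_11-16 and 669 for WiBi_0-16 without the block, and 5636, 3186 and 2763 with it.

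Kdr's second probe had -2.75 and -2.34 in CHIR_8-16, against -4.63 and -4.02 in CHIR_11-16, -5.37 and -3.79 in WiBi_0-16, and -4.79 and -3.92 in WiBi_0-11. Both CHIR_8-16 arrays lay above the other 6, as was the case for 4.3% of the 36430 probes tested. This pattern was picked after the values of all member probes and culture groups were seen. Against WiBi_0-11 the difference was 1.81 (SE 0.59, adjusted p = 0.476 in limma over all probes), or 3.51-fold, and 0.082 was the adjusted p with the replicate block. It was 1.59 within slide 3 and 2.04 within slide 2. Even so, the highest of these cultures was 3.25 under the lowest tissue.

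Csf1r probe 3 had a difference, CHIR_8-16 minus WiBi_0-11, of 1.09 on slide 3 and 1.11 on slide 2, and passed in neither fit (limma adjusted p = 0.755, and 0.136 with the block). The groups overlapped, with -4.83 and -3.39 in CHIR_8-16 and -5.94 and -4.48 in WiBi_0-11. The first Csf1r probe differed by 0.57 (SE 0.89) and the second by -0.13 (SE 0.27), so its probes did not share a direction.

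Esam was lowest in WiBi_0-11, with -3.21 and -3.49, against -2.60 and -3.05 in CHIR_8-16, -2.58 and -2.99 in CHIR_11-16, and -2.92 and -3.07 in WiBi_0-16. Both WiBi_0-11 arrays lay below the other 6 culture arrays, as was the case for 2.3% of probes, and this pattern too was picked after the values were seen. The differences from WiBi_0-11 were 0.53, 0.56 and 0.36 for CHIR_8-16, CHIR_11-16 and WiBi_0-16, with an adjusted p of 0.578 for the first. With the replicate block their adjusted p-values were 0.13, 0.306 and 0.455.

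**Figure D5:**
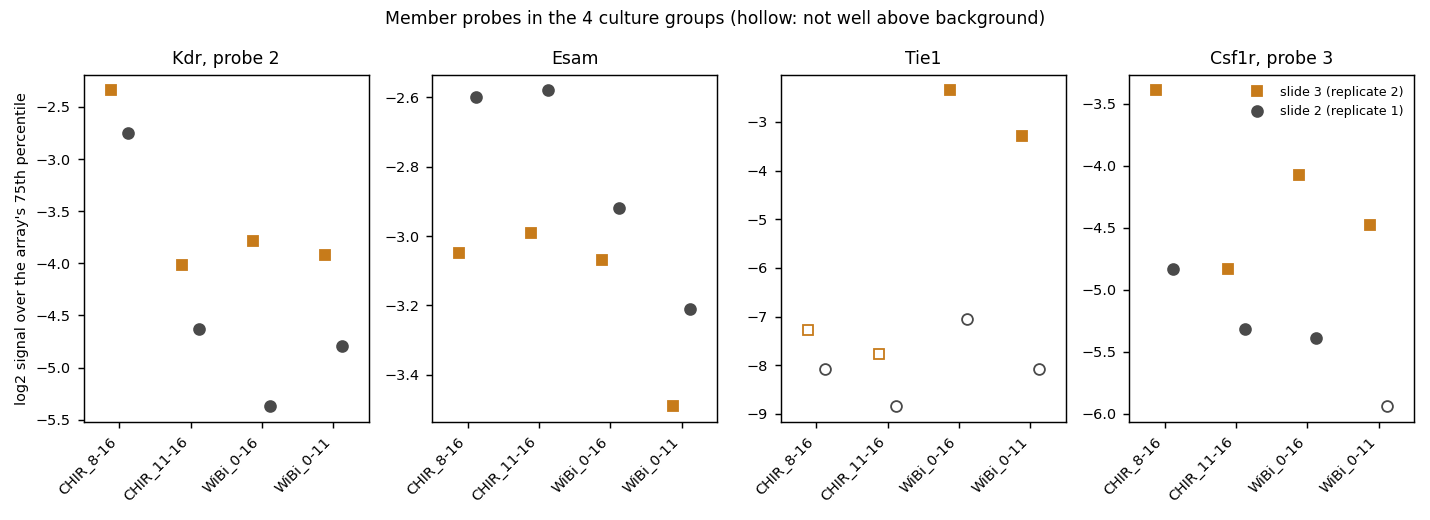
Relative level of Kdr probe 2, Esam, Tie1 and Csf1r probe 3 in the 4 culture groups, 1 point per array, with squares for slide 3 and circles for slide 2 and hollow points where the probe was not well above background. Kdr probe 2 is highest in CHIR_8-16 (-2.34 and -2.75), Esam is lowest in WiBi_0-11 (-3.49 and -3.21), and Tie1 is above background only in the WiBi_0-16 and WiBi_0-11 arrays of slide 3.

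Slide and replicate number coincide in the cultures, and each slide holds all 4 groups. On slide 3 against slide 2, 4 of 6 members were called, all higher (Pecam1, Kdr, Cldn5 and Csf1r), where 34.3% of all genes were called and 24.3% as higher. Kdr's first probe differed by 0.79 (adjusted p = 0.012 in limma), Cldn5 by 0.98 (adjusted p = 0.037), Pecam1 by 0.37 (adjusted p = 0.024) and Csf1r's second probe by 0.37 (adjusted p = 0.038). Esam was the member lower on slide 3, at -0.32 (adjusted p = 0.052), and lay lower there in all 4 groups. Of the 9 member probes tested, 8 had a higher mean on slide 3, as did 59% of all probes tested.

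Over all probes the median slide difference was 0.80 for those with a mean culture level below -6 and 0.03 for those above 2. Of the members not tested among the cultures, Tek differed by 1.04, the Cx3cr1 probes by 0.92 and 0.99, C1qa by 0.36 and Tie1 by 2.84. Under quantile normalization, as under normexp and in the authors' deposited table, the Pecam1 and Cldn5 differences were no longer called (adjusted p = 0.188 and 0.193 under quantile normalization) and that of Esam was (-0.60, adjusted p = 0.011), while Kdr and Csf1r stayed called. The E15 differences of the 8 called members were called against the cultures of slide 3 alone and against those of slide 2 alone.

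Genes whose pattern over the 12 arrays was most like that of the members were found by Pearson correlation among 15758 named genes. The 12 arrays form a tissue and a culture cluster, so the values describe that split. The endothelial profile was most like Lyz2 (r = 0.994), Chp2 (0.993), Oasl2 (0.992), Fli1 (0.991) and Ecscr (0.991). The microglial profile was most like Ccl6 (0.993), Adgrl4 (0.993), Gimap1 (0.993), Kcnj8 (0.991) and Evi2a (0.990). Lyz2, a lysozyme of macrophages, stood with the endothelial profile, and Kcnj8, a pericyte gene, and Adgrl4, an endothelial receptor, with the microglial one.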

How the data were processed

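Per the labels' protocols, total RNA from 12 samples was labelled with Cy3 and hybridised to Agilent arrays of design 028005, whose 60-base probes the files place on mm9. The authors deposited spot intensity values, read out by Agilent's Feature Extraction (10.7.3.1 per the file headers, 9.1 per the submitters' processing notes, which also name limma). The deposited series table holds the authors' log2 values with column medians of 6.19 to 6.24, and its between-array and background steps are not given in the sources used here. It served as an alternative.

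Spots marked as non-uniform or as population outliers were dropped, the processed signal was divided by the array's 75th percentile over non-control spots (629 to 1130), log2 was taken and the spots of a probe were averaged. For tissues against cultures a probe had to be well above background on at least 4 of 12 arrays (37883 passed), and for cultures on both arrays of at least 1 group (36430 passed). The brightest passing probe stood for a gene. Tests used limma 3.58.1 (lmFit and eBayes) in R 4.3.3, 2-sided, with 1 mean for tissues and 1 for cultures, 1 mean per agonist class, or 1 mean per culture group. In simulated data over 26293 genes, log2 shifts of 1 and 2 were recovered for 41.8% and 77.6% of genes between tissues and cultures, and over 25528 genes for 37.3% and 77.6% between agonist and inhibitor-only cultures. The simulation changed 200 genes and drew independent noise for each array, without the shifts that arrays of a slide share. These shares are therefore not the power of the tests on the real arrays. The number of arrays limits the precision.

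Replicates with one number share a slide, and for each of the 6 pairs of groups their deviations were correlated (0.578 to 0.667), so they were treated as paired in an alternative with slide as a replicate block. Culture files hold no mean signal, so the normexp alternative, followed by quantile normalization, used the median signal and median background. The members and the gene lists were chosen with earlier results of these data known. Named genes were the members, up to 4 called genes per list by size of difference, the 5 genes most like each profile and a few region and neuron markers. Symbols came from the files and RefSeq.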

Additional observations from a re-analysis of the deposited data

How the results depend on the processing

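Of 10 members, 8 were called between tissues and cultures in each of 12 fits that leave out 1 array (lowest 8, highest 8) and 8 or 9 under the other scalings, priors, blocks and slides. Counting a gene only when each of its probes was called gave 7. Requiring a signal above background on all 12 arrays left 2 members called, as fewer are then tested. With slide as a random block 3992 genes were called in place of 9325, and the same count of members (8). The share of called genes that were higher in the tissues was 36.5%, against 51.5% with median scaling, which moved the median of all genes by 0.15 (to 0.01, against -0.14). Kdr's brighter probe was at -0.20 against the cultures of slide 3 alone, at 0.59 against those of slide 2 alone and at 0.20 against all cultures.

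For agonist against inhibitor-only cultures limma called 2 genes as reported, and 819 were called with the replicate block, 530 with a trended prior, 8 with normexp and quantile normalization, 0 with quantile normalization alone and 0 without the filter on dim probes. Leaving out 1 array gave 0 to 0. The members called stayed at 0 in each of these fits, so the block changed no member's call. Without 1 array Pecam1 (-0.04) turned to 0.03, 0.02 and 0.0572 when CHIR_8-16 replicate 1, CHIR_11-16 replicate 1 or WiBi_0-16 replicate 2 was left out. Kdr (0.11) turned to -0.03, -0.01 and -0.0364 without CHIR_8-16 replicate 2, CHIR_11-16 replicate 2 or WiBi_0-16 replicate 1. Over the fits without 1 array Pecam1 ranged between -0.12 and 0.0572, Kdr between -0.0364 and 0.38, Aif1 between -1.38 and -0.29, and Cldn5 between 0.20 and 0.84. The cause of these changes was not tested. Members on no culture array above background have bounds, not levels, in the cultures.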
